A study of Mus musculus with 71 samples.

Results

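The cyclin-dependent kinase inhibitor genes of the mouse were followed as Polycomb targets: Cdkn1a, Cdkn1b and Cdkn1c of the CIP/KIP family, and Cdkn2a, Cdkn2b, Cdkn2c and Cdkn2d of the INK4 family. A peak was counted for a gene when the deposited annotation named that gene and placed the peak within 10 kb of its transcription start. By this rule 60 of the 72567 rows in 9 peak tables belonged to the 7 genes; of 10 tables, a second one of RING1B CUT&RUN in ESC was not used, as its column headers match no sample of the labels. The tables differed in what they held: 7 rows for CBX7 and 7 for RING1B by ChIP in embryonic stem cells (ESC), 9 for H3K27me3 by ChIP in ESC, 6 for RING1B and 10 for H3K27me3 at day 8, 5 in a RING1B time course, and by CUT&RUN 8 for RING1B and 2 for H3K27me3 in ESC and 6 for RING1B at day 10. The 10 kb limit fell between a Cdkn1c peak of H3K27me3 at day 8, 9902 bp from the start, and a Cdkn1c peak of H3K27me3 in ESC, 12938 bp from it. The first had 17.9 tags per 10 M in WT and 10.04 in CaPS, and the second had 24.58 and 34.64 in WT and 17.28 and 21.41 in CaPS.

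All cells derived from the J1 line of mouse ESC and differed in the CBX7 they made: the wild-type protein (WT), CBX7-CaPS or CBX7-mCaPS. The labels spell out neither CaPS nor mCaPS; as background from knowledge of the field, CaPS is a region of the Polycomb protein CBX2 known for chromatin compaction and phase separation. ESC, the day 0 cells, grew with LIF on feeder layers of mouse embryonic fibroblasts. Neural progenitor cells (NPC) of day 6 and day 8 came from aggregates kept without LIF, with retinoic acid at 5 uM added from day 4, and embryoid bodies (EB) of day 10 started as hanging drops. WT and CaPS were compared at every stage, and mCaPS only in ESC by RING1B CUT&RUN. The sample titles end in a group number, and libraries that share it are called an experiment here. Knockout libraries were not analysed here. No expression was measured, so the cell types could not be checked by their transcripts, and whether a line is 1 clone is not given in the labels. Each value is the tags in a peak scaled to 10 M tags of the library, and in bulk chromatin a lower value cannot tell less protein per cell from fewer occupied cells.

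These genes encode brakes on the cell cycle. INK4 proteins bind CDK4 and CDK6 and keep them from joining cyclin D, whereas CIP/KIP proteins bind whole cyclin and kinase complexes, above all those of CDK2. Cdkn2a gives 2 proteins from 2 starts: the upstream start gives p19ARF, which guards p53, and the inner start gives p16INK4a. Polycomb complexes keep Cdkn2a silent in stem and dividing cells, through PRC2, which lays down H3K27me3, and PRC1, in which CBX7 reads that mark and RING1B ubiquitinates histone H2A. Cdkn1c is an imprinted gene of growth control that lies in a cluster with Kcnq1 and Phlda2.

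The promoters of the genes are shown first, because the peak tables were unequal in which start they covered. RefSeq promoter windows of GRCm38.p6, 250 bases before to 50 after a start, were found for 6 of the 7 genes and gave 9 windows. Cdkn1c had no entry. Below are the 250 bases before 5 starts, printed 5′ to 3′ on the strand of the gene, with each CpG in capitals. They are the pair of Cdkn2a starts, the pair of Cdkn1a starts and the upstream Cdkn2c start.

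Cdkn2a upstream start (p19ARF), chr4:89294620-89294869, minus strand: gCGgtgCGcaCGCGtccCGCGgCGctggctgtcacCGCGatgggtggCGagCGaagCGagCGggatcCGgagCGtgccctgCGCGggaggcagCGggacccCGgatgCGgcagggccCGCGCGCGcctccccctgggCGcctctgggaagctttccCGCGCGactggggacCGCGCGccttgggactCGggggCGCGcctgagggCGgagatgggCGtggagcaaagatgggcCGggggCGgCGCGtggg

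Cdkn2a inner start (p16INK4a), chr4:89282193-89282442, minus strand: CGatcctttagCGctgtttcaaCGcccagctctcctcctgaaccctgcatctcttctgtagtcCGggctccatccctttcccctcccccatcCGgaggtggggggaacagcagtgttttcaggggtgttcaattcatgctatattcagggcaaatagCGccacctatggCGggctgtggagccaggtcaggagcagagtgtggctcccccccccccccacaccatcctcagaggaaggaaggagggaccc

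Cdkn2c upstream start, chr4:109666757-109667006, minus strand: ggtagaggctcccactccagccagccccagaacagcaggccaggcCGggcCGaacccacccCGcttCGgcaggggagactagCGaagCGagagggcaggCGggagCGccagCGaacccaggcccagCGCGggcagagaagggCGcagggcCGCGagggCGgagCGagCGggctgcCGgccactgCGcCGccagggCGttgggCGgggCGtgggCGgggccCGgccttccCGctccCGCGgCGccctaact

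Cdkn1a upstream start, chr17:29090729-29090978, plus strand: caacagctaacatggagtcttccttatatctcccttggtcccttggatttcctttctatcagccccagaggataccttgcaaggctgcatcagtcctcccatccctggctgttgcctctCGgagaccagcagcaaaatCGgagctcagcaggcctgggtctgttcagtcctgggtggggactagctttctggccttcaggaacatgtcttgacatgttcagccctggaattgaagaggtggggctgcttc

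Cdkn1a downstream start, chr17:29093519-29093768, plus strand: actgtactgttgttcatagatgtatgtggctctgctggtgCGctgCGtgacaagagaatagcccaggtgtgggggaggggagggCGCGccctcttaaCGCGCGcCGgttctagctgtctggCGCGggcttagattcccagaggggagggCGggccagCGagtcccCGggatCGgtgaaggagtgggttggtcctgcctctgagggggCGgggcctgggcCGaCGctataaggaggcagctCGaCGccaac

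The p19ARF window of 300 bases held 45 CpG and 77% G and C, which put its CpG number at percentile 98.1 of the 32851 windows of the table, whose median was 7. The p16INK4a window held 12. At Cdkn2c the upstream window held 33 CpG and the inner one 8. Cdkn1a had 2 CpG at its upstream start and 23 at the downstream one. The windows of Cdkn1b, Cdkn2b and Cdkn2d held 30, 18 and 22 CpG. The letters of a GC box, GGGCGGG or the reverse complement CCCGCCC, stood in 25.6% of all windows; Cdkn2d had 5 matches, the upstream Cdkn2c start 3 and the downstream Cdkn1a start 2.

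A deposited peak of any name overlapped the p16INK4a window and the inner Cdkn2c window in 9 of the 9 tables, and the p19ARF and upstream Cdkn2c windows in 8. The table without them was H3K27me3 ChIP in ESC, where the Cdkn2a mark ended inside the gene and the Cdkn2c mark was cut into 2 peaks on either side of the upstream start. The upstream Cdkn1a window, poor in CpG, was covered in 0 tables, and the downstream one in 2. For Cdkn1a the peaks lay just inside the gene beyond that second start: in ESC at chr17:29094090-29095422, in intron 1 per the deposited annotation and 987 bp past the start at 29093769. The Cdkn1b window was covered in 3 tables, Cdkn2b in 5 and Cdkn2d in 1.

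Cdkn2a and Cdkn2b, side by side on chromosome 4 (mm10, 89274473 to 89294619 and 89306289 to 89311032, both on the minus strand), were covered by 1 long interval in 3 tables and by pieces in the other 6. In the RING1B time course the interval named for Cdkn2a was 42957 bp long, from 89268837 to 89311793, and held both genes whole. The H3K27me3 intervals of day-8 ChIP, 41714 bp, and of ESC CUT&RUN, 47146 bp, spanned the same stretch but for the last bases before the Cdkn2b start at day 8. In ESC ChIP the domain was split: a peak of 15456 bp over the p16INK4a start, a weak one of 2126 bp, and a peak of 22308 bp over the p19ARF start and the Cdkn2b body. That last peak is named for Gm12610, a predicted gene, so the 10 kb rule does not count it, and it was singled out after its values were seen. It ended 155 bp before the Cdkn2b start in ESC ChIP, while the Gm12610 peaks of the day-8 RING1B table and of both RING1B CUT&RUN tables reached past that start. Thus no RING1B or CBX7 row carried the name Cdkn2b, although RING1B was called over its promoter in 4 tables. Cdkn2b had rows of its own only for H3K27me3: 2 in ESC ChIP, of 1338 and 1237 bp, and 1 of 1400 bp upstream of the gene at day 8.

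**Figure D1:**
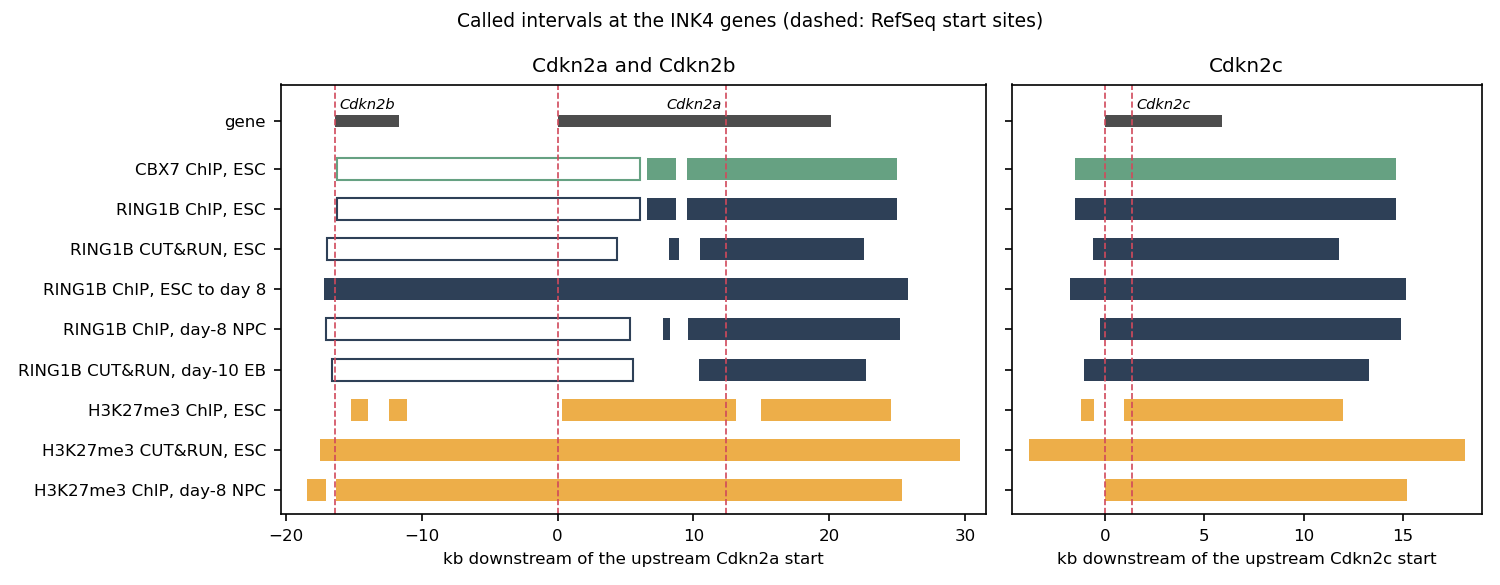
Called intervals at the INK4 genes, drawn in kb from the upstream start of Cdkn2a (left) and Cdkn2c (right), 1 row a table (CBX7 green, RING1B dark blue, H3K27me3 yellow). Filled bars carry the name of a cyclin-dependent kinase inhibitor gene, open bars are the Gm12610 intervals, dark bars are genes and dashed lines are RefSeq starts; the time course and the H3K27me3 CUT&RUN and day-8 tables show 1 long interval where the others show pieces.

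Cdkn2c, on the same chromosome at 109660876 to 109666756, had peaks that ran past both ends of the gene: 16150 bp in ESC ChIP, 16870 bp in the time course and 21900 bp for H3K27me3 by CUT&RUN. Cdkn1c (chr7:143458339-143461059) had a peak over the gene of 3910 bp in ESC ChIP and a second one of 3853 bp upstream, which ESC CUT&RUN joined into 1 interval of 10377 bp. Cdkn1a and Cdkn1b had short peaks of 1333 and 624 bp in ESC ChIP. The only Cdkn2d row was a 499 bp peak over its start (chr9:21291118-21291616) in ESC RING1B CUT&RUN, with 2.62 tags per 10 M in WT, 1.76 in CaPS and 1.76 in mCaPS, where 3 tags amount to between 1.57 and 2.65. These values are at the edge of what the libraries could detect, and no difference can be read from them.

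By tags summed over the peak, Cdkn2a and Cdkn2c ranked highest of the 7 genes in each of the 9 tables; per kb of peak they did not. Since tables are not on a common scale, each gene's strongest peak was ranked among all peaks of its own table. In ESC ChIP Cdkn2a stood at percentile 97.5 for CBX7 and 97.8 for RING1B, Cdkn1c at 91.5 and 90.5, Cdkn1a at 63.9 and 63.3, and Cdkn1b at 42.4 and 23.5. In ESC RING1B CUT&RUN Cdkn1c was as near the top as the INK4 genes, at 97.5 beside 98.7 and 98.4. In the time course Cdkn2a and Cdkn2c stood at 99.8 and 99.6, Cdkn1c at 96.3, Cdkn1b at 83.3 and Cdkn1a at 78.2. For RING1B ChIP of day-8 NPC Cdkn1c stood at 64.5, below Cdkn1a at 84.9. In day-10 embryoid bodies Cdkn2a and Cdkn2c were at 99.1 and 99.4, while Cdkn1c was at 31.6, again below Cdkn1a, at 59.9, and Cdkn1b was at 3.86. Such ranks favour wide intervals. Per kb of peak, Cdkn1a at day 10 stood at percentile 98.9, above Cdkn2c at 98.5 and Cdkn2a at 98.0, in a peak of 500 bp. For H3K27me3 at day 8 it stood at 96.6, above Cdkn2a at 91.9 and just below Cdkn2c at 96.8. In the time course Cdkn1a stood at 94.2 per kb and Cdkn1c at 84.7. Cdkn1c stood per kb at 81.4 in day-8 NPC, in a peak of 834 bp, and at 55.7 in day-10 embryoid bodies, in a peak of 500 bp. The ranks are a description and were not tested.

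**Figure D2:**
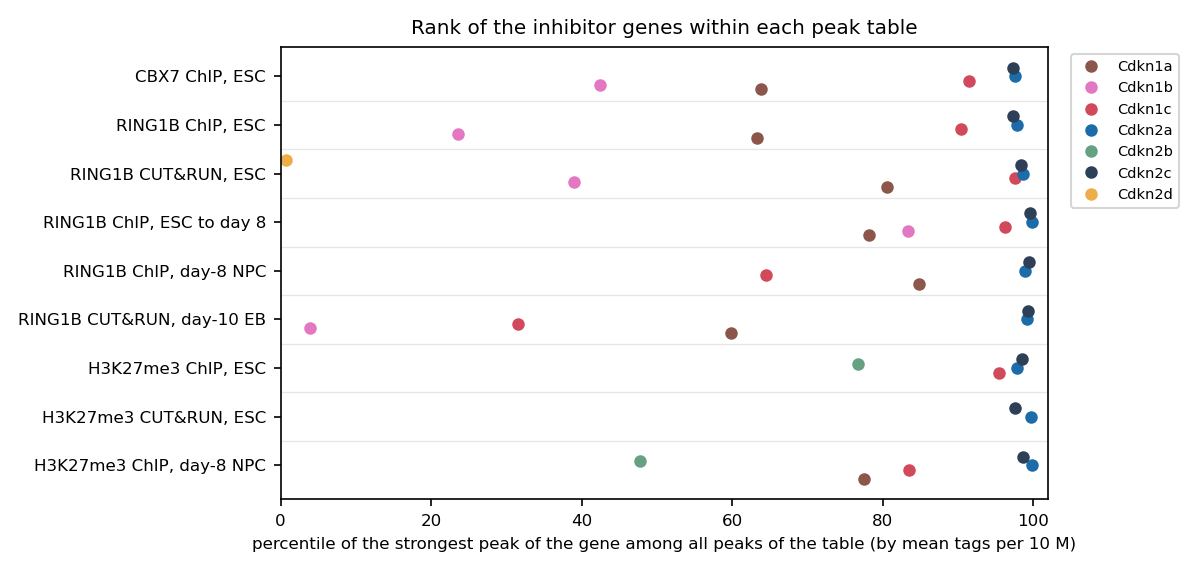
Percentile (x axis) of each gene's strongest peak among all peaks of its table, by mean tags per 10 M summed over the peak, with 1 row a table and 1 colour a gene. Cdkn2a and Cdkn2c sit at the right in the rows of CBX7, RING1B and H3K27me3 alike. Cdkn1c lies farther left in the RING1B rows of day-8 NPC, at 64.5, and day-10 EB, at 31.6, where its peaks are short (834 and 500 bp). Cdkn2d appears only once, near 0.

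In ESC, CBX7 was lower at 6 of the 7 peaks in CaPS cells than in WT cells, over Cdkn1c, Cdkn1a, Cdkn1b, Cdkn2a and Cdkn2c. As background, 44.3% of the 6326 peaks passed as lower, and the median log2 difference of all peaks was -0.85. At the Cdkn1c gene peak CBX7 measured 266.87, 553.22 and 172.25 tags per 10 M in WT of experiments 1, 2 and 3 and 75.13, 243.35 and 97.39 in CaPS. Every CaPS library lay below its WT partner of the same experiment, though the groups overlapped, since the CaPS library of experiment 2 was above the WT library of experiment 3. The log2 difference was -1.27 (SE 0.27, n = 3 a group, 2.41-fold lower, limma adjusted p = 2.72e-05). The Cdkn1c upstream peak, between chr7:143462782 and 143466634, had 83.75, 178.43 and 57.42 in WT and 28.86, 93.16 and 42.64 in CaPS. It too was lower in CaPS in each experiment, with a log2 difference of -0.95 and an adjusted p of 0.00266 (limma).

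At Cdkn2a over the p16INK4a start, CBX7 had 884.75, 2470.35 and 837.78 tags per 10 M in WT and 437.86, 1150.22 and 705.92 in CaPS. Each CaPS library was below its partner, with the smallest gap in experiment 3. The log2 difference was -0.79 (limma adjusted p = 0.0247). Cdkn2c, whose product p18INK4c is the other INK4 protein with a strong domain here, had 870.66, 2296.8 and 733.69 in WT and 444.33, 1112.2 and 687.2 in CaPS. The pattern was the same, and the log2 difference was -0.70 (limma adjusted p = 0.0459). The weak Cdkn2a peak between the 2 starts did not follow: it had 12.94, 17.11 and 15.56 in WT and 14.43, 19.01 and 17.4 in CaPS, a log2 difference of 0.15 (limma adjusted p = 0.785). For comparison, the neighbouring Gm12610 interval over p19ARF and Cdkn2b had 698.96, 1631.96 and 577.28 in WT and 429.4, 870.75 and 612.81 in CaPS, lower in experiments 1 and 2 and higher in experiment 3.

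The other CIP/KIP genes had fewer CBX7 tags in their peaks than Cdkn1c. Cdkn1a, which encodes p21, the inhibitor induced by p53, had 27.03, 66 and 19.23 tags per 10 M of CBX7 in WT and 26.37, 9.51 and 15.98 in CaPS. Only experiment 2 showed a wide gap: the log2 difference of -0.99 (limma adjusted p = 0.0108) became -0.14 (adjusted p = 0.808) without it. Cdkn1b, which encodes p27, had 7.61, 25.26 and 7.07 in WT and 3.98, 3.8 and 6.41 in CaPS. Its groups did not overlap, and its log2 difference was -1.12 (limma adjusted p = 0.0459), at values near those that 3 tags give in the shallowest library, 11.4. Leaving out experiment 3 left 6 calls, leaving out experiment 2 left 2, and leaving out experiment 1 left 1. With no block for the experiment there were 0 calls. With equal sums over peaks 0 peaks were called lower and Cdkn2c was called higher (log2 0.35, limma adjusted p = 0.0228), with Cdkn2a at 0.26, where the table median was 0.11. The share of all peaks called in each of these settings is not given here, so the counts cannot be read as particular to these genes.

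RING1B in the same ESC showed no call at any of the 7 peaks, against 0.142% of the 6326 peaks called lower (limma; 1174 peaks had an unadjusted p under 0.05, edgeR called 0 of the 7 and DESeq2 1). At the Cdkn1c gene peak it had 238.42, 549.6 and 194.22 tags per 10 M in WT and 115.28, 274 and 134.71 in CaPS. As with CBX7 each CaPS library was below its partner, and the log2 difference of -0.86 had an adjusted p of 0.227 (limma). Cdkn2a had 933.21, 2636.35 and 1646.81 in WT and 523.91, 1192.59 and 1820.48 in CaPS. Here experiments 1 and 2 were lower in CaPS and experiment 3 was higher, with a log2 difference of -0.61 (limma adjusted p = 0.377). Cdkn2c went the same way, with 920.51, 2287.13 and 1215.36 in WT and 618.56, 1152.17 and 1572.65 in CaPS (log2 -0.40, limma adjusted p = 0.585). Without experiment 3 the Cdkn1c gene peak, Cdkn2a and Cdkn2c all passed as lower, at log2 differences of -1.02, -0.99 and -0.78 (limma adjusted p = 0.00442, 5.68e-09 and 9.29e-06). The share of all peaks that passed in that setting is not given here, so these calls cannot be read as particular to these genes. The median difference over all RING1B peaks was -0.53 in experiment 1, -1.42 in experiment 2 and 0 in experiment 3. The time course below reuses the ESC samples of experiment 3 and adds an ESC pair of experiment 5, whose median was also 0. In that pair CaPS had 1.30 times the WT value at Cdkn2c, 1.41 at Cdkn1a and 1.13 at Cdkn1b, but 0.879 at Cdkn2a and 0.904 at Cdkn1c.

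Among the other RING1B peaks of ESC ChIP, Cdkn1a had 45.85, 103.05 and 30.24 tags per 10 M in WT and 29.05, 31.44 and 38.75 in CaPS. The groups overlapped, with a log2 difference of -0.66 (limma adjusted p = 0.490). Cdkn1b had 6.35, 29.58 and 12.51 in WT and 5.62, 6.74 and 12.73 in CaPS, also overlapping (log2 -0.70, limma adjusted p = 0.658). The Cdkn1c upstream peak had 87.47, 216.6 and 120.96 in WT and 37.49, 114.54 and 83.6 in CaPS (log2 -0.88, limma adjusted p = 0.257). It was lower in CaPS in every experiment. The weak Cdkn2a peak had 14.11, 23.85 and 19.29 in WT and 16.87, 26.95 and 39.86 in CaPS (log2 0.47, limma adjusted p = 0.703), higher in every experiment.

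**Figure D3:**
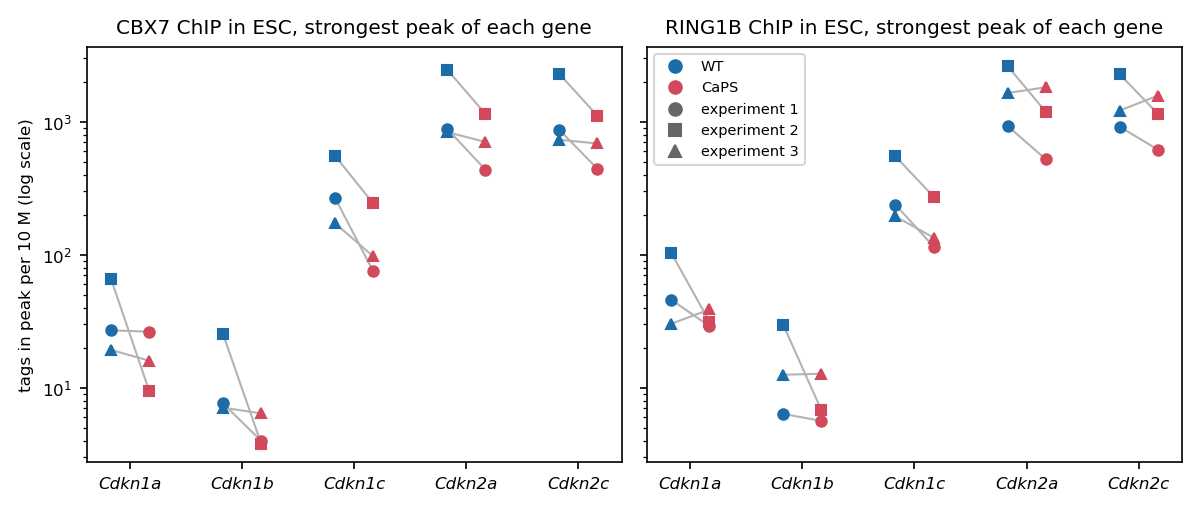
CBX7 (left) and RING1B (right) tags in the strongest peak of each gene, per 10 M on a log axis, in WT (blue) and CaPS (red) ESC, with 1 marker shape an experiment and a line joining libraries of 1 experiment. Lines for Cdkn1c fall in both panels, and at Cdkn2a and Cdkn2c the RING1B lines of experiment 3 rise while the others fall.

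Because CBX7 and RING1B were read over the same intervals, their ratio could be set against all peaks. In WT the Cdkn1c gene peak had more CBX7 for its RING1B than most peaks, at percentiles 82.4, 88.7 and 92.0 in experiments 1, 2 and 3. In CaPS it stood at 49.6, 67.0 and 96.4, so no common shift between genotypes was seen. Cdkn1a stood at 23.3, 55.9 and 64.3 in WT. These are descriptions of paired libraries and were not tested.

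RING1B CUT&RUN in ESC, with 1 column for each genotype in the table used, allowed ratios but no test; the columns name the genotype and no sample number. Cdkn2a had 458.86 tags per 10 M in WT, 348.41 in CaPS and 165.8 in mCaPS. The ratio of CaPS to WT was 0.759 (exact binomial 95% interval 0.673 to 0.856, counting error only), and that of mCaPS to WT was 0.361 (0.307 to 0.423). Cdkn2c had 374, 297.25 and 162.71 in the same order, with ratios of 0.795 (0.696 to 0.906) and 0.435 (0.367 to 0.511). Cdkn1c, read over gene and upstream region as 1 interval, had 227.07, 188.32 and 107.15, with ratios of 0.829 (0.703 to 0.983) and 0.472 (0.381 to 0.577). Per 10 M tags the 3 genes thus had the order WT, CaPS, mCaPS, from high to low. With equal sums over peaks CaPS was above WT, with ratios of 1.16 at Cdkn2a, 1.22 at Cdkn2c and 1.27 at Cdkn1c, and mCaPS to WT gave 0.805, 0.969 and 1.05. Over all 10106 peaks the median ratio was 0.632 for CaPS and 0.493 for mCaPS, so in CaPS the ratios of these genes were above the median, and in mCaPS those of all 3 were below it.

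Cdkn1a had 44 tags per 10 M in WT, 35.72 in CaPS and 22.49 in mCaPS, with ratios to WT of 0.812 (0.536 to 1.18) and 0.511 (0.322 to 0.817). The stronger Cdkn1b peak had 12.83 in WT and 4.85 in mCaPS, a ratio of 0.378 (0.105 to 0.938). A ratio past 1.5-fold lower was reached by 1 of the 8 peaks in CaPS against WT, where 55.4% of all peaks reached it, and by 5 of 8 in mCaPS against WT, where 77% did. Between mCaPS and CaPS, 5 of 8 reached it against 34.8% of all peaks, and the ratios were 0.476 (0.398 to 0.568) at Cdkn2a, 0.547 (0.454 to 0.655) at Cdkn2c, 0.569 (0.449 to 0.710) at Cdkn1c and 0.630 (0.381 to 1.09) at Cdkn1a, where the median peak had 0.778. The Gm12610 interval had 388.67 in WT, 421.62 in CaPS and 197.11 in mCaPS. Per 10 M tags this side of the domain was thus slightly higher in CaPS than in WT, with no interval computed, while the p16INK4a side was lower. With equal sums over peaks the p16INK4a side was above WT too, at a ratio of 1.16. The contrast between the sides was not tested.

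H3K27me3 in ESC gave no call between genotypes by ChIP, while the single CUT&RUN libraries differed. In ChIP the 2 Cdkn2a peaks had 202.4 and 465.34 tags per 10 M in WT of experiments 1 and 5 and 267.87 and 413.2 in CaPS over the downstream part, and 202.79 and 432.04 against 271.05 and 423.15 over the upstream part. The experiments were farther apart than the genotypes, and WT and CaPS overlapped. Cdkn2c had 301.49 and 557.98 in WT and 349.73 and 555 in CaPS (log2 0.10), and Cdkn1c had 154.78 and 227.97 against 159.63 and 159.27 (log2 -0.24). The Cdkn2b peaks had 26.12 and 50.21 in WT against 35.02 and 48.83 in CaPS near the gene's end, and 18.44 and 44.84 against 31.38 and 46.95 near its start. The one row whose groups did not overlap was the short Cdkn2c peak above the upstream start, with 6.15 and 8.86 in WT and 13.19 and 14.27 in CaPS. How many of the 9195 peaks had no overlap was not counted, so no difference is read from this row. With limma 0 of 9 rows and 0% of the 9195 peaks were called, with adjusted p of 1.00 at each of them; 101 peaks had an unadjusted p under 0.05, and edgeR and DESeq2 also called 0.

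By CUT&RUN, H3K27me3 over the 47 kb Cdkn2a domain was 1059.34 tags per 10 M in WT and 2174.33 in CaPS, a ratio of 2.05 (1.93 to 2.18). Over Cdkn2c it was 442.83 in WT and 1023.01 in CaPS, a ratio of 2.31 (2.11 to 2.53). Both rows were past 1.5-fold higher, which 17.8% of the 4926 peaks were, and the median ratio was 1.18. The ratios of the 2 assays differed at the same genes, and with 1 H3K27me3 CUT&RUN library for each genotype the spread between libraries is not known. Cdkn1c and Cdkn2b, which had H3K27me3 rows by ChIP, had none of their own in this table, and Cdkn2b lay inside the Cdkn2a interval.

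On the scale of 10 M tags, RING1B fell at Cdkn1c during neural differentiation, while at the INK4 genes no change passed the test. At Cdkn1c, WT had 339.17 and 333.64 tags per 10 M in ESC of experiments 3 and 5, 117.62 and 159.43 at day 6, and 67.3 and 103.19 at day 8. The stages did not overlap. Against ESC the log2 difference was -1.29 at day 6 (SE 0.35, n = 2 a group, 2.45-fold lower, limma adjusted p = 0.00363) and -2.00 at day 8 (4.00-fold lower, limma adjusted p = 4.82e-07). As background, 14.6% and 20.9% of the 15091 peaks passed as lower at day 6 and day 8 in WT, with median differences of -0.47 and -0.61. CaPS cells had 235.86 and 301.71 in ESC, 121.19 and 212.66 at day 6, and 110.31 and 138.03 at day 8. Day 8 lay below ESC in both experiments, with a log2 difference of -1.11 (2.15-fold lower, limma adjusted p = 0.0164, background 14.1%), while day 6 at -0.73 did not pass (limma adjusted p = 0.188, background 5.06%).

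The day-8 change at Cdkn1c in WT also passed with each library brought to an equal sum over peaks (log2 -0.86, limma adjusted p = 0.00539), which gives all libraries equal signal over the table. Without scaling to 10 M it did not (limma adjusted p = 0.374). Neither the day-6 call in WT nor the day-8 call in CaPS at Cdkn1c passed with equal sums or without scaling. The day-6 call in WT and the day-8 call in CaPS each depended on 1 library: without the WT ESC library of experiment 3 the former had an adjusted p of 0.117, and without the WT day-6 library of experiment 5 it had 0.0877, and without any 1 of the CaPS ESC or day-8 libraries the latter had between 0.110 and 0.228 (limma). With no block for the experiment these 2 calls also missed the threshold (limma adjusted p = 0.0679 and 0.137). Whether the fall was smaller in CaPS than in WT was tested directly: the difference of the differences at day 8 was 0.89 on the log2 scale (95% interval -0.09 to 1.87, limma adjusted p = 0.666, background 0.272%), and at day 6 it was 0.56 (limma adjusted p = 0.646, background 0.371%). Over all peaks the median of this difference was 0.20 at day 8 and 0.37 at day 6. At day 8 itself the CaPS libraries, 110.31 and 138.03, were both above the WT libraries, with a log2 difference of 0.56 (limma adjusted p = 0.661), where the median peak had 0.26. Of all peaks, 1.01% passed in either direction between genotypes at day 8 and 0.0663% in ESC; none of the 5 genes did.

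At Cdkn2c RING1B was higher at both later stages than in ESC, in each genotype, without passing the test. WT had 1228.23 and 1343.73 tags per 10 M in ESC, 1592.51 and 1833.5 at day 6, and 1466.97 and 2741 at day 8. CaPS had 1588.12 and 1746.21 in ESC, 1881.15 and 4554.63 at day 6, and 2197.52 and 4354.34 at day 8. ESC and later values did not overlap in either genotype. Against ESC the WT differences on the log2 scale were 0.41 at day 6 and 0.64 at day 8, and the CaPS differences 0.81 and 0.89 (limma adjusted p = 0.645, 0.405, 0.342 and 0.245). With equal sums over peaks the WT differences were 1.29 and 1.79 and the CaPS differences 1.18 and 1.60, and all 4 then passed as higher (limma adjusted p at most 2.6e-09), with table medians of 0.25, 0.36, 0.16 and 0.13 under that scaling. The call at this gene thus depends on the scale, and its direction was the same on both. How many of all peaks passed as higher under equal sums is not given here, so the calls cannot be read as particular to Cdkn2c.

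The 43 kb interval over Cdkn2a and Cdkn2b had 2714.47 and 3739.71 tags per 10 M in WT ESC, 2421.84 and 2610.74 at day 6, and 1600.71 and 3571.37 at day 8. In CaPS it had 3325.33 and 3287.83 in ESC, 2173.96 and 5572.51 at day 6, and 2177.59 and 4361.2 at day 8. In CaPS the libraries of experiment 3 were below ESC and those of experiment 5 above it, and no comparison with ESC or between genotypes passed. With equal sums over peaks this interval passed as higher than ESC at days 6 and 8 in both genotypes, by 0.54 and 0.73 on the log2 scale in WT and 0.44 and 0.60 in CaPS (limma adjusted p = 0.00781, 0.000104, 0.0404 and 0.00172), where the differences per 10 M tags had been -0.34 and -0.41 in WT and 0.07 and -0.10 in CaPS. Here too the share of all peaks that passed as higher under equal sums is not given, so these calls cannot be read as particular to this interval. Experiment 5 was the shallower one, with 2.01 to 6.20 M tags a library against 11.30 to 25.34 M in experiment 3.

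Cdkn1a and Cdkn1b had fewer tags than the INK4 and Cdkn1c intervals throughout the course. Both still ranked above most peaks, at percentiles 78.2 and 83.3. Cdkn1a had 29.29 and 22 tags per 10 M in WT ESC, 21.78 and 17.44 at day 6, and 16.08 and 29.02 at day 8. In CaPS it had 35.64 and 31, then 42.02 and 53.68, then 24.07 and 50.91. At day 6 both CaPS libraries were above both WT libraries. The log2 difference of 1.24 did not pass (limma adjusted p = 0.0743), where 3.66% of all peaks passed as higher. It passed when the WT library of experiment 3 was left out, and the share of all peaks in that fit is not given here. Cdkn1b had 22.58 and 51.33 in WT ESC, 26.14 and 52.31 at day 6, and 18.2 and 29.83 at day 8, and in CaPS 38.29 and 57.86, 39.81 and 84.65, and 32.76 and 64.61. CaPS was above WT in each of the 6 pairs of stage and experiment, and at day 8 the groups did not overlap (limma adjusted p = 0.384). The median peak was also higher in CaPS, by 0.05 in ESC, 0.41 at day 6 and 0.26 at day 8 on the log2 scale.

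**Figure D4:**
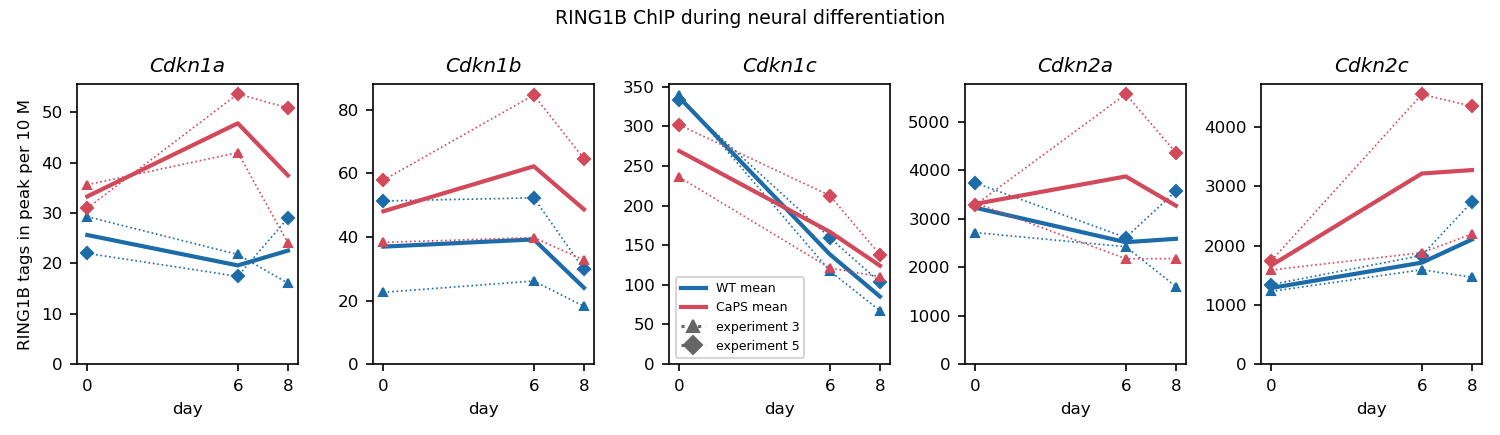
RING1B tags per 10 M in the strongest peak of each gene at days 0, 6 and 8, from 0 on a linear axis, WT blue and CaPS red. Dotted lines are libraries of experiments 3 (triangles) and 5 (diamonds) and thick lines their means; Cdkn1c falls in both genotypes, from 339.17 and 333.64 to 67.3 and 103.19 in WT, and Cdkn2c rises in the means.

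The separate day-8 RING1B table, which shares the samples of experiment 3 with the time course and adds experiment 4, has another header total for 1 of them (WT, 10.34 M against 11.81 M). It gave no call at 6 peaks and 0% over 5393 peaks with limma (532 with an unadjusted p under 0.05; edgeR and DESeq2 also called 0). Cdkn2c had 1446.71 and 1654.94 tags per 10 M in WT of experiments 3 and 4 and 2177.39 and 1480.6 in CaPS. CaPS was higher in experiment 3 and lower in experiment 4, with a log2 difference of 0.21 (limma adjusted p = 0.966). Cdkn2a crossed in the same way, with 868.22 and 1473.29 in WT and 1230.78 and 928.79 in CaPS (log2 -0.08, limma adjusted p = 0.987), as did Cdkn1a, with 20.8 and 86.05 against 46.77 and 67.73 (log2 0.40, limma adjusted p = 0.940). Cdkn1c had 8.71 and 49.72 in WT and 15.79 and 8.4 in CaPS, in a short peak of 834 bp at the start of the gene (log2 -0.82, limma adjusted p = 0.773). The Gm12610 interval had 674.26 and 1364.3 in WT and 895.11 and 776.53 in CaPS, again with the experiments in opposite directions.

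H3K27me3 at day 8, from 1 column for each genotype that the headers call pooled, was lower in CaPS at 9 of 10 rows past 1.5-fold, against 75.3% of the 8657 peaks. Cdkn2a had 4024.95 tags per 10 M in WT and 1992.6 in CaPS, a ratio of 0.495 (0.470 to 0.522). Cdkn2c had 1716.5 and 966.88 (0.563, 0.520 to 0.610), and Cdkn1c 270.79 and 168.01 (0.620, 0.508 to 0.761). Cdkn1a, which had no H3K27me3 row in ESC, had 231.63 in WT and 78 in CaPS, a ratio of 0.337 (0.265 to 0.424), the only one of these below the median ratio of 0.469. The upstream Cdkn2b peak had 50.35 and 24.18 (0.480, 0.305 to 0.832). The libraries differed in depth, 4.47 M tags in WT and 32.88 M in CaPS, and in the share of tags in peaks, 16.4% and 8.20%; the part of these in the ratios was not tested. With equal sums over peaks 0 of 10 rows were past 1.5-fold.

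In day-10 embryoid bodies, RING1B CUT&RUN tags summed over a peak were most at the wide INK4 intervals, while per kb Cdkn1a had as many: 32.5 tags per 10 M and kb, against 31.4 at Cdkn2c and 30.05 at Cdkn2a. Cdkn2a had 345.09 tags per 10 M in WT and 395.9 in CaPS, a ratio of 1.15 (1.00 to 1.31), and Cdkn2c had 381.26 and 517.84, a ratio of 1.36 (1.20 to 1.53), where the median peak had 1.12. The Gm12610 interval had 332.49 and 470.29. Cdkn1a had 17.48 in WT and 15.04 in CaPS, with an interval of the ratio from 0.442 to 1.67. Cdkn1c had 10.57 and 9.76 in WT and 7.32 and 3.66 in CaPS at 2 peaks of 500 bp, and Cdkn1b had 8.94 in WT and 2.44 in CaPS, where 3 tags amount to 2.44. Past 1.5-fold lower were 2 of 6 rows, against 15.1% of 6547 peaks.

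**Figure D5:**
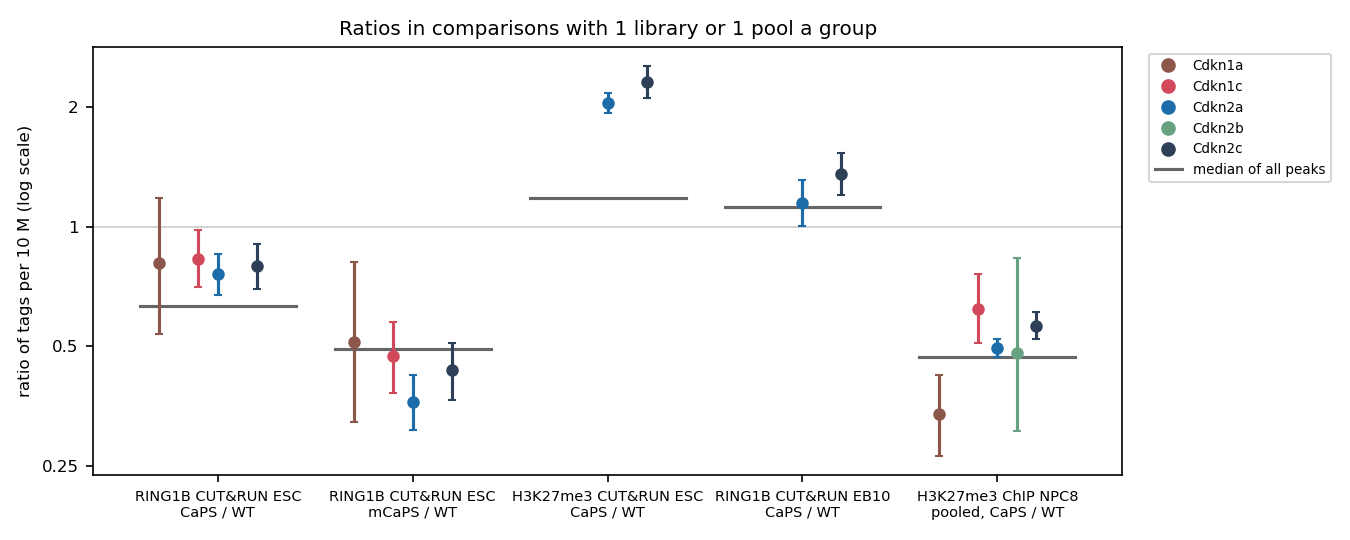
Ratios of tags per 10 M (log axis) in comparisons with 1 library or 1 pool a group, for each gene's strongest peak with at least 50 tags in both libraries together, with exact binomial 95% intervals for counting error. Grey lines are the median of all peaks; H3K27me3 at Cdkn2a and Cdkn2c is above 1 by CUT&RUN in ESC (2.05 and 2.31) and below 1 in the day-8 pools (0.495 and 0.563).

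Among 30 other cell cycle genes, 9 had a CBX7 peak in ESC and 3 of these passed as lower in CaPS, against 44.3% of all peaks, with a list median of -0.48 against -0.85 for all peaks. They were Ccnd2 (log2 -1.30, limma adjusted p = 0.000136) and Ccnd1 (-0.80, 0.0118), which encode D-type cyclins, the partners of CDK4 and CDK6, and E2f6 (-1.41, 0.000433), a repressive E2F protein. For RING1B in ESC 0 of 9 passed. In the time course 18 had a RING1B peak, and 1 passed as lower at day 8 in WT, against 20.9% of all peaks: Ccnd2, with a log2 difference of -1.97 (limma adjusted p = 3.5e-05). The median of these 18 was 0.01. In CaPS, Cdk6 passed as higher at day 8 than in ESC (log2 1.30, limma adjusted p = 0.00324), where 246 of all 15091 peaks did. At day 6 Ccnd3 (1.47, 0.0200) and Rb1 (2.28, 0.000599) passed as higher in CaPS than in WT, where 3.66% of all peaks did. Beside Cdkn1c in the imprinted cluster, Phlda2 was lower for CBX7 in CaPS ESC (log2 -1.23, limma adjusted p = 5.12e-05) and for RING1B at day 8 in WT (-1.51, 0.000278), and Kcnq1 was lower for CBX7 in CaPS ESC (-0.80, 0.0367). Phlda2 was also lower for RING1B at day 8 in CaPS (-1.55, 0.000302), where 14.1% of all peaks passed as lower. Nap1l4 was lower at day 8 in WT (-3.22, 0.00406). It also passed the test of the difference between genotypes at day 8 (5.08, 0.0428), where 0.272% of all peaks passed and Cdkn1c did not. Its mean of 4.44 tags per 10 M is below what 3 tags give in the shallowest library of the course, 14.9. These calls are thus at the edge of what the shallow libraries could detect. Mtap, next to Cdkn2a, had a CBX7 difference of 0.36 (limma adjusted p = 0.705).

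Occupancy at cell type markers was counted in the same way. For CBX7 in CaPS ESC, where 44.3% of all peaks passed as lower, 6 of 6 neural markers, 5 of 5 measured fibroblast markers and 1 of 3 measured pluripotency markers passed as lower. In the WT course at day 8, where 20.9% of all peaks did, 4 of 6 neural, 5 of 5 fibroblast and 1 of 4 pluripotency markers passed as lower for RING1B. Differentiation started from ESC freed of feeders, per the labels, and whether feeders were removed from the ESC samples is not given there. The part of feeder chromatin in the differences between stages was not tested.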

How the data were processed

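The authors deposited 9 annotated peak tables used here, whose values are normalised signal, tags in a peak per 10 M tags of the library, per the file headers. Coordinates are mm10, per the file headers. Tools listed in the submitters' processing notes are HOMER 4.10.4, SAMtools 1.9, Bowtie2 2.3.4.3 and cutadapt 1.14. Drosophila chromatin was added to ChIP samples, per the labels' protocols; no source used here says whether the scaling includes it. Peaks were called over input (ChIP) or IgG (CUT&RUN), per the series design text. Only peaks within 10 kb of a start are listed in 6 of the tables. One further table, RING1B CUT&RUN in ESC with 2 columns whose headers match no sample of the labels, was left out.

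Each peak was tested on the log2(value + 1) scale in R 4.3.3 by limma 3.58.1 (empirical Bayes with trend), adjusted by Benjamini-Hochberg over all peaks of a table, at a threshold of 0.05. This scale understates changes of weak peaks. The prior degrees of freedom were infinite, so a p-value measures the spread usual for peaks of that strength, not a gene's own libraries. The group number in the titles, called the experiment here, entered as a block, since the design text says compared experiments were run together. The titles do not say what the number stands for. With the mean of each genotype and stage removed, libraries with the same number correlated at -0.02 to 0.30, so the pairing rests on that text. The labels do not tell whether a group's libraries stem from separate cultures, so p-values may measure technical spread. Comparisons with 1 library a group have exact (Clopper-Pearson) 95% intervals on recovered tags, for counting error only. Library totals ran from 2.01 to 49.13 M tags, and 3 tags, the limit a count of 0 allows, amount to 0.611 to 14.947 per 10 M. Alternatives were edgeR 4.0.16 and DESeq2 1.42.0 on counts of recovered read ends, other pseudocounts, a minimum mean, other scalings and each library left out. The plan foresaw limma if the values were normalised, as they are. Scripts were tested on simulated data. How many of all peaks had groups without overlap was not counted in any comparison, so statements on overlap only describe the values of single genes. All rows of the 7 genes under the 10 kb rule were named; the genes and lists were chosen with earlier results of these data known.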

Additional observations from a re-analysis of the deposited data

How the results depend on the processing

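Counts of called inhibitor peaks changed under several settings. The share of all peaks called under each setting is not given here, so these changes cannot be read as particular to these genes. For CBX7 in ESC the 6 lower calls became 0 with no replicate block, 0 with limma without trend, 0 with tags not scaled to 10 M (an alternative chosen after seeing the data), 1 call in the other direction (Cdkn2c higher) with the same sum over peaks, 3 with edgeR, 3 within 2 kb of the start and 1 to 6 with a library or experiment left out. With the same sum over peaks the log2 differences reversed at Cdkn1a (0.037), Cdkn2a (0.26), Cdkn2c (0.35) and the Cdkn1c upstream peak (0.083). For RING1B in ESC the count of 0 became 1 with DESeq2 and 0 to 3 with a library or experiment left out, and the same sum reversed Cdkn1b (0.020), Cdkn1a (0.11), Cdkn2a (0.17) and Cdkn2c (0.38). In the day-8 RING1B table Cdkn2a reversed with the same sum (0.055) and unscaled (1.00), and Cdkn1c reversed unscaled (0.23).

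In the time course the 1 call at day 6 in WT became 0 with no replicate block, without trend and unscaled, 2 with the same sum (Cdkn2a and Cdkn2c, both higher) and 0 to 1 with a library left out. At day 8 in WT it became 3 with the same sum (Cdkn1c lower, Cdkn2a and Cdkn2c higher) and 0 unscaled. In CaPS the count at day 6 went from 0 to 2 with the same sum (both higher). At day 8 in CaPS 1 became 0 with no replicate block, without trend and unscaled, 2 with the same sum (both higher), 2 with DESeq2 (Cdkn1c lower, Cdkn2c higher) and 0 to 1 with a library left out. For CaPS against WT at day 6, leaving out a library gave 0 to 1. The block changed no other count.

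Of the ratios past 1.5-fold, rows within 2 kb of the start gave 0 for H3K27me3 CUT&RUN, 0, 2 and 2 for RING1B CUT&RUN in ESC (CaPS to WT, mCaPS to WT, mCaPS to CaPS), 1 for day 10 and 2 for day-8 H3K27me3. With the same sum 0 lower ratios past 1.5-fold were left in the RING1B CUT&RUN of ESC, and those past it were higher: 2 for mCaPS to WT, 1 for mCaPS to CaPS and 1 for CaPS to WT, all at weak Cdkn1b or Cdkn2a peaks. Log2 ratios reversed at Cdkn1a (0.19) and Cdkn1c (0.072) for mCaPS to WT, and at Cdkn2a (0.22), Cdkn2c (0.28), Cdkn1a (0.31), Cdkn1c (0.34) and Cdkn1b (0.21) for CaPS to WT. The same sum gave 0 for day-8 H3K27me3, reversed at Cdkn2c (0.17) and at Cdkn1c (0.31, 0.10, 0.17 and 0.16 at 4 peaks). A pseudocount of 5 gave 0 for CaPS to WT and 3 for mCaPS to CaPS. The cause of these changes was not tested. Leaving out a library was not run for H3K27me3 in ESC and RING1B at day 8, nor leaving out an experiment in the time course, as no residual degrees of freedom remain. Depth limits Cdkn1b, Cdkn2d and the day-10 Cdkn1c peaks, whose values are near what 3 tags give.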
